A study of Mus musculus with 4 samples.

Results

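The 6 actin genes of the mouse were examined in RNA from cultured primary myoblasts, the dividing precursors of muscle fibres. The genes were taken by name from a table of 24445 genes, Acta1 (skeletal muscle actin), Actc1 (cardiac actin), Acta2 and Actg2 (the smooth muscle actins) and Actb and Actg1 (the cytoplasmic actins), and all 6 were found. The study compared myoblasts of wild type (WT) mice with myoblasts of mice that lack a functional Tet2 gene (Tet2 KO), both of strain C57BL/6, with 2 libraries in each group. Tet2 is an enzyme that oxidises methylated cytosine in DNA. Per the study's results the knockout is constitutive, made by deleting exon 3, so every cell type of the animal carries it. Per the labels, satellite cells were sorted from hindlimb muscle by the absence of CD45, CD11b, CD31 and Sca1 and the presence of CD34 and integrin alpha 7, and were grown on collagen for at least 3 days until they had become myoblasts. The authors' table holds 1 value per gene and group, in FPKM (mapped fragments scaled to transcript length and to the size of the library), read here as a value over the 2 libraries of the group. No value per library was used, so no replicate error stands beside any level, no test was possible, and every difference below compares these pooled values only.

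Actin is the protein of thin filaments in muscle and of the cytoskeleton in all cells. The 6 genes encode nearly identical proteins, and tissues differ in which of them they transcribe: cytoplasmic actins are made in nearly every cell, while muscle cells add the muscle actins as they differentiate. Skeletal myoblasts are known to switch on Actc1 and Acta2 early and Acta1 as myotubes form, so Actc1 and Acta2 in such cells are not in themselves signs of heart or smooth muscle. Transcription of several actin genes depends on serum response factor (SRF), which binds a motif called the CArG box, and on cofactors that are held back by unpolymerised actin.

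Acta1 lies on chromosome 8 from 126415658 to 126418675, Actc1 on chromosome 2 from 113873020 to 113878611 and Acta2 on chromosome 19 from 34314826 to 34329863, in the mouse build mm9. Actg2 lies on chromosome 6 from 83462903 to 83486245, Actb on chromosome 5 from 143664794 to 143668433 and Actg1 on chromosome 11 from 120207001 to 120209809. All 6 genes are on the minus strand. The annotated transcripts used here (GENCODE vM1) have 7 exons for Acta1 and Actc1, 9 for Acta2 and Actg2, and 6 for Actb and Actg1. The locus of Acta1 is overlapped by a gene on the opposite strand, and so is that of Actc1, while a microRNA gene lies within Actg1 on the same strand. The library kit named in the labels does not keep the strand, so reads of such partners could not be told from those of the actin genes, and neither partner had a value of its own in the table.

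Because the genes resemble each other, the stretch of coding sequence in which they differ most is shown, since reads from such stretches let an aligner tell the genes apart. The 6 coding sequences were aligned without gaps from the stop codon backwards over 1128 bases, of which 341 differ in at least 1 gene. The 60 bases below hold 26 of these, begin at base 7 of the coding sequence of Acta1, Actc1 and Acta2, at base 4 of Actg2 and at base 1 of Actb and Actg1, and therefore cover the region of the amino terminus, in which actins differ most. Capitals mark bases that differ from Acta1.
Acta1: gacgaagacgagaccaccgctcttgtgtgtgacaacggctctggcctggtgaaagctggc
Actc1: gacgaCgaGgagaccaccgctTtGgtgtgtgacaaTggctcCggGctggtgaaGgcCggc
Acta2: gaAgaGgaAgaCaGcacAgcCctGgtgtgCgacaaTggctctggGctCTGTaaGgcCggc
Actg2: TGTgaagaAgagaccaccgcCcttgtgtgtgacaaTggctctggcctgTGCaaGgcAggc
Actb: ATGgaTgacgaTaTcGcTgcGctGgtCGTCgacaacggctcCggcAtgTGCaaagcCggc
Actg1: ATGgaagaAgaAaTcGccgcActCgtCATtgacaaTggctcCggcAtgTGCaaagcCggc
In this window Actc1 differs from Acta1 at 9 bases, Actg2 at 11, Acta2 at 17, Actg1 at 19 and Actb at 20.

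Over the whole alignment, Acta1 and Actc1 share 86.2% of bases and encode another residue in 4 of 376 codons. Acta2 and Actg2 also differ in 4 codons, at 84.0% identical bases, and so do Actb and Actg1, at 88.7%. Between Acta1 or Actc1 and a smooth muscle actin, 5 to 8 codons differ. The muscle and cytoplasmic actins lie farther apart, with 25 differing codons between Acta1 and Actb. The longest identical run between a pair of coding sequences is 77 bases, between Acta1 and Actb.

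How far short reads can be placed was counted from the transcripts and the genome, since the read length of the RNA libraries was not given in the sources used here. For Actc1 and Actg2, no window of 50 bases recurs exactly elsewhere in mm9 or in another actin transcript. For Acta2 0.404% and for Acta1 2.22% of the 50-base windows do, and none of 100 bases does. For Actb the shares are 15.4% at 50 bases and 1.10% at 100 bases. Actg1 stands apart, with 96.7% of its 50-base windows and 92.9% of its 100-base windows found elsewhere. A single stretch of chromosome 4, from 103235930 to 103237834, holds 89.3% of the 50-base windows of Actg1, and neither of the annotated genes there has a value in the table. The level of Actg1 is therefore uncertain, because the authors' handling of reads with several positions is not given in the sources used here.

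Sequence before the transcription start was available in the RefSeq table for 4 of the 6 genes, and not for Actb and Actg2. These promoters are shown because 3 of the 4 genes were lower in Tet2 KO and 1 was not, and all are known SRF targets. Each window is the 250 bases before the RefSeq start, on the minus strand, and its exact match in mm9 was unique. Capitals mark CArG boxes, that is CC, 6 bases of A or T and GG, together with forms in which 1 of the 6 core bases is another base. Positions are counted backwards from the start.
Acta1, chr8:126418676-126418925: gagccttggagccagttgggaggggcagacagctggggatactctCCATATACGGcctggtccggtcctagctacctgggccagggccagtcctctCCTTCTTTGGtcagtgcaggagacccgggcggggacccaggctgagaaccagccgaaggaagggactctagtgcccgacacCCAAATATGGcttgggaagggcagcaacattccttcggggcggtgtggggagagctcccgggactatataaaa
Actc1, chr2:113878612-113878861: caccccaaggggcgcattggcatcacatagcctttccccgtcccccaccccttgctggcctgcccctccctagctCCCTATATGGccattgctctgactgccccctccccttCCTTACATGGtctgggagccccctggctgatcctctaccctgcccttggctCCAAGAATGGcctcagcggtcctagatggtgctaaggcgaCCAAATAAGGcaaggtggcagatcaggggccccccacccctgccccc
Acta2, chr19:34329864-34330113: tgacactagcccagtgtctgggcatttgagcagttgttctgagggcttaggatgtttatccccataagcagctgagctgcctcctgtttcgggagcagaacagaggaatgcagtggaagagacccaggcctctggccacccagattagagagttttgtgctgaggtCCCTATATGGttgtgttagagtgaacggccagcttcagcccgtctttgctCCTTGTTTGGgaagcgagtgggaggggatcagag
Actg1, chr11:120209810-120210059: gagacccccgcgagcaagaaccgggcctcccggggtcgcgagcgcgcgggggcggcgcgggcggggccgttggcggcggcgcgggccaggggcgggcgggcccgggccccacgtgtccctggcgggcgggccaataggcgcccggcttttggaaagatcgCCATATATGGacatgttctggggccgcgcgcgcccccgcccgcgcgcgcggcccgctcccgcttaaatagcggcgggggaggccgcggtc

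The strict CArG box was present once in Acta1 (from -73 to -64), once in Actc1 (from -47 to -38) and once in Actg1 (from -90 to -81). Acta2 held no strict box but 2 forms with 1 other core base, Actc1 held 3 such forms and Acta1 held 2. Of 32851 RefSeq promoter windows of the same length, 1.47% held a strict CArG box and 8.59% held either form. The E box (CANNTG) covers several sequences, of which MyoD and myogenin bind some. It occurred 2 times in Acta1, 3 times in Acta2, once in Actg1 (as CACGTG) and not in Actc1. Of all windows, 66.2% held at least 1. The variant CAGCTG occurred once in Acta1 and once in Acta2, and in 4271 of all windows. Both motifs were searched on both strands, and no E box overlapped a CArG form. The windows also differed in base composition, with 79.2% G and C and 43 CG dinucleotides in Actg1 against 53.6% to 63.6% and 4 to 9 CG dinucleotides in the 3 muscle actins. CArG forms stood before the 3 genes that were lower and before Actg1, whose level was similar in both groups but uncertain, as given above. Whether these motifs bear on the differences was not tested. A match of letters is no evidence that a factor was bound.

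**Figure D1:**
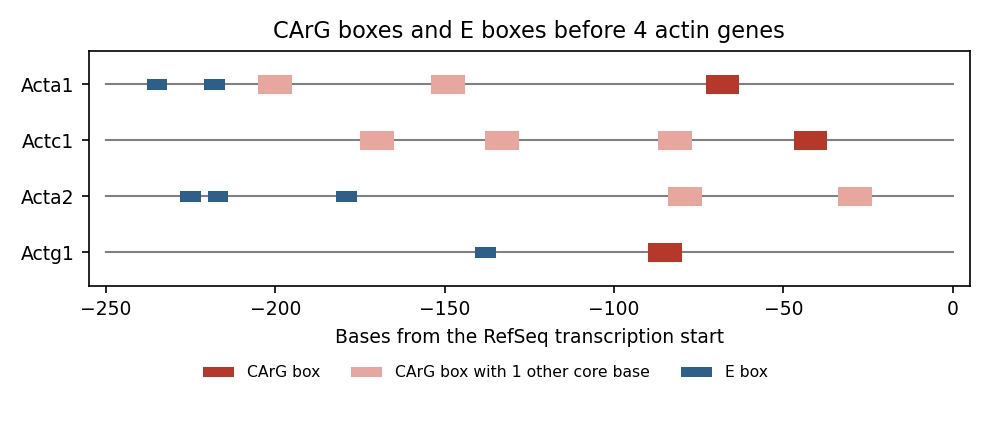
Positions of motifs in the 250 bases before the RefSeq transcription start of 4 actin genes, with the distance from the start in bases on the horizontal axis. Dark red blocks are strict CArG boxes (1 each in Acta1, Actc1 and Actg1), pale red blocks are forms with 1 other core base (2, 3 and 2 in Acta1, Actc1 and Acta2) and blue blocks are E boxes, of which Actc1 has none in this window.

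The knocked-out gene was read first. Tet2 had 5.79 FPKM in Tet2 KO against 6.64 in WT, and a value over all exons does not show the deleted exon by itself, so it neither verified nor contradicted the labels. Differences between groups are given below as log2((Tet2 KO FPKM + 1) / (WT FPKM + 1)), on which negative values mean a lower level in Tet2 KO, and folds are ratios of the FPKM values. With 1 value per group, a gene was called when this log2 difference was past a fold of 2, among the 11692 genes whose mean FPKM reached 1, and the calls past 1.5-fold are given beside it. Of the 6 actin genes, 5 reached that mean.

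The skeletal muscle actin fell most of the 6 in Tet2 KO. Acta1, the main actin of the mature sarcomere, had 207 FPKM in Tet2 KO against 629 in WT. It was 3.04-fold lower in Tet2 KO, a log2 difference of -1.60. It was the 1 actin gene past 2-fold, where 1.21% of all genes were lower and 2.08% were higher. Of the 11692 genes, 21 had a lower log2 difference than Acta1. Of 127 other genes with a WT level within 1.5 times that of Acta1, 0 did.

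The cardiac actin gene was lower too, by less. Actc1, the striated actin of heart and of immature skeletal muscle, had 184 FPKM in Tet2 KO against 351 in WT. The log2 difference was -0.92 and the level 1.90-fold lower, just short of 2-fold. A lower log2 difference was seen in 161 genes of the table, and in 5 of 204 other genes with a like WT level. The ratio of Acta1 to Actc1 was 1.79 in WT and 1.12 in Tet2 KO, so that both striated actins stood at nearly the same level in the knockout.

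The smooth muscle actins differed from each other by their level. Acta2, the actin of vascular smooth muscle and of contractile fibroblasts, had 146 FPKM in Tet2 KO against 236 in WT, a log2 difference of -0.69 and a level 1.62-fold lower. Of 336 other genes with a like WT level, 8 had a lower log2 difference. Actg2, the actin of visceral smooth muscle, had 0.402 FPKM in Tet2 KO against 0.315 in WT, too low for a call in either direction. Past 1.5-fold, Acta1, Actc1 and Acta2 were lower and none of the 5 genes was higher, where 2.89% of all genes were lower and 3.72% were higher. Among the 935 genes whose mean reached 100 FPKM, a level that these 5 genes exceed, 2.03% were lower and 2.03% were higher past 1.5-fold.

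The cytoplasmic actins had nearly the same level in both groups. Actb, the actin of the leading cell edge, had 2271 FPKM in Tet2 KO against 2219 in WT, a log2 difference of 0.03. It ranked 9th in Tet2 KO and 10th in WT among all genes of the table. Actg1, the second cytoplasmic actin, had 744 FPKM in Tet2 KO against 769 in WT, a log2 difference of -0.05, with the uncertainty from its genomic copies given above. The median log2 difference of all 11692 genes was -0.0044, and the central 90% ran from -0.40 to 0.44. Both cytoplasmic actins lay well inside that range, while Acta1, Actc1 and Acta2 lay below it.

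**Figure D2:**
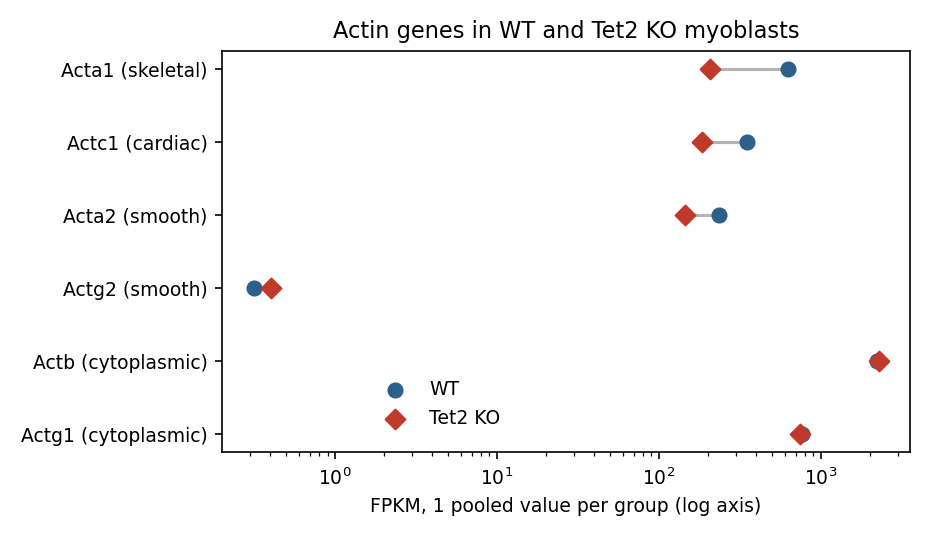
Level of each actin gene in WT (blue circles) and Tet2 KO (red diamonds), in FPKM on a log axis, with 1 pooled value per group and no error. Acta1, Actc1 and Acta2 lie between 146 and 207 FPKM in Tet2 KO and between 236 and 629 FPKM in WT, while the symbols of Actb and Actg1 nearly coincide.

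**Figure D3:**
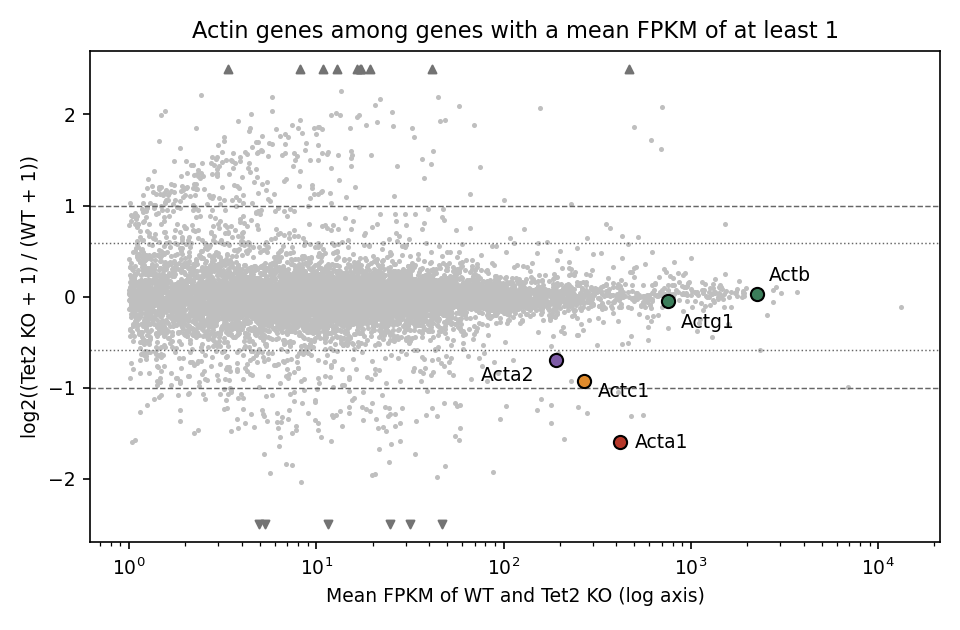
Log2 difference between Tet2 KO and WT against the mean FPKM of both groups (log axis) for genes with a mean of at least 1, with dashed lines at 2-fold and dotted lines at 1.5-fold. Grey triangles at the edge stand for 16 genes beyond 2.5 on the log2 scale. Acta1 (-1.60) lies below the dashed line, Actc1 (-0.92) and Acta2 (-0.69) lie between the lines, and Actb and Actg1 lie near 0.

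The order of the levels was the same in both groups, from Actb through Actg1, Acta1, Actc1 and Acta2 to Actg2. How large a gap between neighbours would exceed the spread of libraries could not be told from pooled values. The gaps among the 3 expressed muscle actins were smaller in Tet2 KO, where the level of Acta1 was 1.42 times that of Acta2, against 2.66 times in WT. The gap between the cytoplasmic actins changed little, from 2.89 times in WT to 3.05 times in Tet2 KO.

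Summed over the 6 genes, actin transcripts came to 3553 FPKM in Tet2 KO against 4204 in WT, which is 0.628% and 0.742% of all FPKM in the table. The 4 muscle actins together had 538 FPKM in Tet2 KO against 1217 in WT, and the cytoplasmic pair had 3015 and 2987 FPKM. The mix of isoforms shifted accordingly. Acta1 made up 15.0% of the actin sum in WT and 5.83% in Tet2 KO, Actc1 8.35% and 5.19%, and Acta2 5.62% and 4.10%. The share of Actb was 52.8% in WT and 63.9% in Tet2 KO, although its own level hardly differed. The ratio of the striated pair (Acta1 and Actc1) to the cytoplasmic pair, which does not depend on how the groups were scaled to each other, was 0.328 in WT and 0.130 in Tet2 KO, a log2 difference of -1.34.

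**Figure D4:**
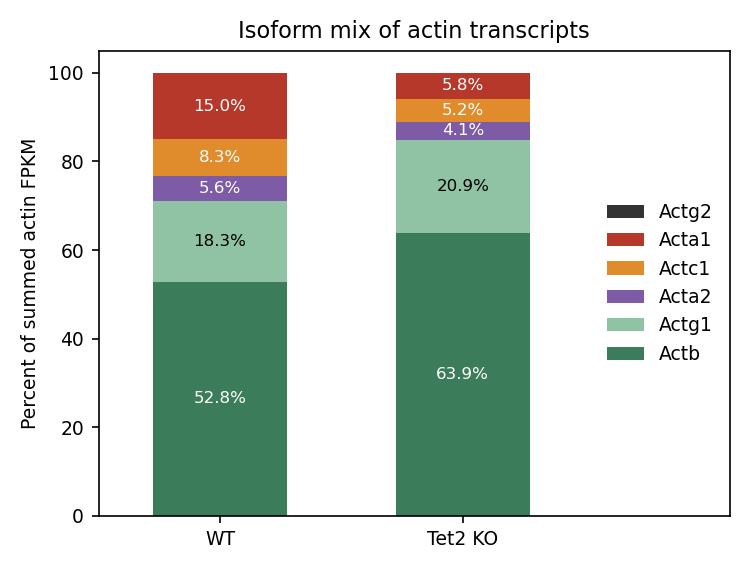
Share of each actin gene in the summed FPKM of the 6 actin genes, in percent, as stacked bars from 0 for WT and Tet2 KO. The 3 upper segments (Acta1, Actc1 and Acta2) take 15.0%, 8.35% and 5.62% in WT and 5.83%, 5.19% and 4.10% in Tet2 KO. Actg2 is too low to be seen.

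Genes with the levels most like those of each actin were looked up over the 2 groups, by the summed absolute difference in log2(FPKM + 1). For Acta1 these were Myl4, Myog and Mylpf, a myosin light chain, the transcription factor myogenin and another light chain, with log2 differences of -1.31, -1.04 and -1.30. For Actc1 they were Myl1 (-1.21), Tnnc1 (-1.28) and Ctsl (-0.92), that is a light chain, a troponin C and a cathepsin. For Acta2 they were Hes6 (-0.62), Tpm2 (-0.54) and Bin1 (-0.43). For Actg1 they were Eef1g, Nme2 and Rps27a, and for Actb Snora81, Rn45s and Rps27rt. The genes nearest to Actg2, Zfp536, Itpka and Adcy4, were all below 1 FPKM. Over 2 groups such likeness rests on 2 values a gene.

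Transcripts of proteins that sit on the muscle thin filament were lower, as were those of the muscle actins. Of 14 genes listed for tropomyosins, troponins, nebulin, leiomodins and tropomodulins, 13 had a mean of at least 1 FPKM, all 13 were lower in Tet2 KO, 8 of them past 2-fold and 9 past 1.5-fold. Of all 11692 genes, 5989 were lower and 5703 higher, with 1.21% lower past 2-fold and 2.89% past 1.5-fold. Their median was -1.17, against -0.0044 for all genes. Tnnc2, the calcium sensor of fast fibres, had 36.1 FPKM in Tet2 KO against 140 in WT, at -1.92. Lmod2 and Lmod3, which promote growth of thin filaments at the pointed end, had -1.50 and -1.44, and Tnnt3, the fast troponin T, had -1.38. Tpm1, the tropomyosin gene with the highest level in the list, had 383 FPKM in Tet2 KO against 545 in WT, at -0.51. The smallest differences among the 13 were those of Tpm1, Tnnt1 (-0.53), Tpm2 (-0.54) and Tmod1 (-0.55), all nearer to Acta2 than to Acta1. Tpm1 and Tpm2 also serve other cell structures, and whether this bears on their levels was not tested. The median of the list lay between the log2 differences of Acta1 and Actc1.

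The cytoplasmic partners of actin did not move in that way. Of 7 expressed genes of non-muscle myosin and cytoplasmic tropomyosin, 5 were lower and 2 higher, 0 were past 1.5-fold, and the median was -0.03. Myl6, the non-muscle light chain with the highest level here, had 674 FPKM in Tet2 KO against 732 in WT. Of the 9 genes of the Arp2/3 complex, which nucleates branched actin, 8 were higher and 1 was lower, beside 5703 higher and 5989 lower of all 11692 genes, and 0 were past 1.5-fold, where 3.72% of all genes were higher. Their median was 0.09, with Arpc4 at 0.40 and the most abundant, Arpc1b, at 228 FPKM in Tet2 KO against 183 in WT (0.31). The 14 genes of the chaperones that fold actin (the CCT ring and prefoldin) ranged from -0.08 to 0.07, and Cct3, with the highest mean of them, had 406 FPKM in Tet2 KO against 416 in WT. The 12 crosslinkers and anchors ranged from -0.21 for Vcl to 0.29 for Actn4, and Flna had 363 FPKM in Tet2 KO against 353 in WT.

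Single genes within the other cytoskeletal lists stood apart. Among 17 genes of actin monomer binding and turnover the median was -0.03 and 1 was past 2-fold, where 1.21% of all genes were lower. That gene, Cap2, the cyclase-associated protein of striated muscle, had 13.8 FPKM in Tet2 KO against 38.7 in WT (-1.42). Its widely expressed relative Cap1 had 126 FPKM in Tet2 KO against 113 in WT (0.15). Cfl2, the muscle cofilin, was at -0.42 and the non-muscle Cfl1 at 0.07. The most abundant gene of the list, Tmsb4x, which sequesters actin monomers, had 1576 FPKM in Tet2 KO against 1709 in WT. Among 16 expressed formins and nucleation promoters, 0 were past 2-fold. Cobl (-0.92) and Daam2 (-0.69) were lower past 1.5-fold, where 2.89% of all genes were lower. Both had low levels, with 1.51 FPKM in Tet2 KO against 3.73 in WT for Cobl and 0.715 against 1.77 for Daam2. The most abundant of the 16, Fmnl3, was at 0.10. The 7 expressed actin-related proteins outside the Arp2/3 complex ranged from -0.14 to 0.06, led in level by Actl6a with 78.3 FPKM in Tet2 KO against 83.1 in WT. Cfl1, Cfl2, Cap1, Vcl and Actn4 are named for comparison and were chosen after their values were seen.

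The transcripts of SRF and of its actin-regulated cofactors were at like levels in both groups. Srf had 23.4 FPKM in Tet2 KO against 24.4 in WT, Mkl1 had 5.37 and 5.42 FPKM, and Mkl2 had 5.20 and 5.04 FPKM. Myocd, the cofactor of cardiac and smooth muscle, was below 0.1 FPKM in both groups. Of the 8 expressed genes of this list, 7 were lower and 1 higher, with a median of -0.06, beside 5989 lower of all 11692 genes. The 1 gene past 2-fold, where 1.21% of all genes were lower, was Ablim3, which encodes an actin-binding LIM protein (-1.11). These are transcript levels and do not show the activity of the factors.

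Whether the cardiac and smooth muscle actins came with other genes of those tissues was examined with lists of their genes. Of 11 cardiac genes, 1 had a mean of at least 1 FPKM, Myl4, with 274 FPKM in Tet2 KO against 681 in WT (-1.31), a light chain that is known also from immature skeletal muscle. Among the thin filament genes above, Tnnt2, the cardiac troponin T, had 99.6 FPKM in Tet2 KO against 218 in WT (-1.13), and Tnnc1, the troponin C of heart and slow muscle, had 162 and 395 FPKM (-1.28). Both are known also from immature or slow skeletal muscle. Myl7 was listed at 0 in both groups, and Myh6, Nppa, Tnni3, Nkx2-5, Gata4, Tbx5 and Hcn4 were all below 0.6 FPKM. Of 10 genes of the smooth muscle contractile apparatus, 5 were expressed, with a median of -0.50 and 0 past 2-fold. Of these 5, 4 were lower, beside 5989 of all 11692 genes. Myl9 had 66.7 FPKM in Tet2 KO against 120 in WT (-0.83) and Synpo2 had 1.19 and 2.49 FPKM (-0.67). Both were past 1.5-fold, where 2.89% of all genes were lower. Of the other members, Cald1 had 58.3 FPKM in Tet2 KO against 66.9 in WT (-0.20) and Smtn had 9.02 and 13.1 FPKM (-0.50). Tagln had 11.0 FPKM in Tet2 KO against 9.93 in WT (0.14), and Mylk had 0.715 and 1.08 FPKM. Myh11, Cnn1, Lmod1 and Kcnmb1 were each below 0.3 FPKM in both groups.

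**Figure D5:**
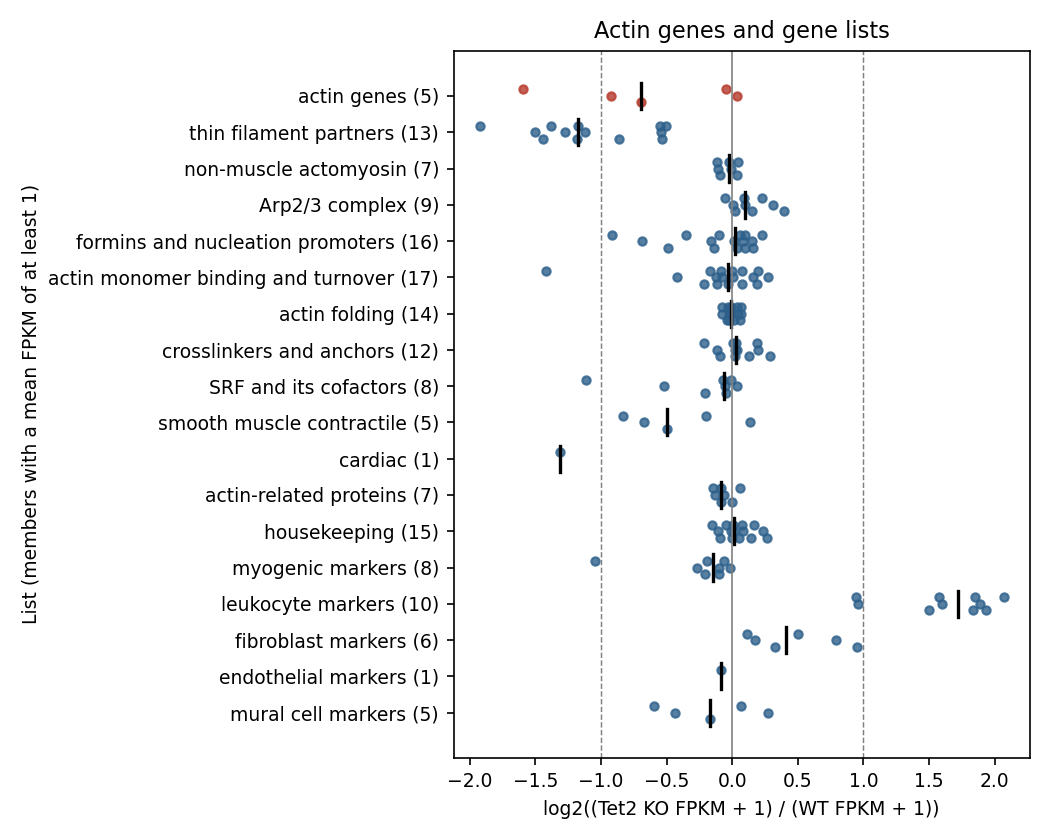
Log2 difference between Tet2 KO and WT of the actin genes (red) and of the members of each gene list (blue) with a mean of at least 1 FPKM, 1 point a gene and a black bar for the median, with the number of genes in brackets and dashed lines at 2-fold. The thin filament list (median -1.17) lies left of 0, most cytoskeletal lists centre near 0, and the leukocyte markers (median 1.72) lie to the right.

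Markers of cell types were read in the same libraries. All 8 myogenic markers were present, with Myod1 at 313 FPKM in Tet2 KO against 336 in WT and Des, the muscle intermediate filament, at 372 and 449 FPKM. Their summed level was 1477 FPKM in Tet2 KO against 1914 in WT, and all 8 were lower, with a median of -0.15, beside 5989 of all 11692 genes. The 1 marker past 2-fold, where 1.21% of all genes were lower, was Myog, with 268 and 554 FPKM. Most of the difference in the sum was its own. In bulk RNA, fewer differentiating cells and less muscle actin RNA per cell cannot be told apart. All 10 leukocyte markers were higher in Tet2 KO, 8 of them past 2-fold and 10 past 1.5-fold, where 2.08% and 3.72% of all genes were higher. They had a summed level of 468 FPKM in Tet2 KO against 119 in WT, led by Lyz2 at 253 and 59.5 FPKM. Per the labels, the sort took cells without CD45 and CD11b, and the genes of both antigens are in this list. Ptprc (CD45) had 5.67 FPKM in Tet2 KO against 1.36 in WT, and Itgam (CD11b) had 10.1 and 2.09 FPKM. How completely the sort removed such cells was not tested. Leukocytes also transcribe Actb, Actg1 and the Arp2/3 genes, and the part of these cells in the actin levels was not tested. All 6 expressed fibroblast markers were higher, beside 5703 of all 11692 genes, with a median of 0.41. None passed 2-fold, and Dcn (0.95) and Col1a2 (0.79) passed 1.5-fold, where 3.72% of all genes were higher. Their sum was 201 FPKM in Tet2 KO against 169 in WT, of which Col3a1 gave 171 and 152 FPKM. Dcn, Col1a2 and Col3a1 were chosen after their values were seen. Of 7 mural cell markers, cells that make Acta2 in vessel walls, 5 were expressed. Of these 5, 3 were lower and 2 higher, with a median of -0.17. None passed 2-fold, and Abcc9 (-0.59) was lower past 1.5-fold, where 2.89% of all genes were lower. The 7 markers had a sum of 23.1 FPKM in Tet2 KO against 24.1 in WT, of which Notch3 gave 14.7 and 13.98 FPKM. Rgs5 was below 0.5 FPKM in both groups. The 6 endothelial markers summed to 3.95 FPKM in Tet2 KO against 4.91 in WT. Of 15 housekeeping genes, 0 were past 1.5-fold, with a median of 0.01, and Eef1a1 had 3769 FPKM in Tet2 KO against 3642 in WT.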

How the data were processed

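RNA of primary myoblasts was sequenced from 4 libraries, 2 per group, made with the TruSeq RNA Library Preparation Kit v2. Per the study's methods and the submitters' processing notes, the authors trimmed reads, aligned read pairs to mm9 with TopHat2 2.0.13 and estimated expression with Cuffdiff 2.2.1. The gene annotation, strand setting and handling of multiply aligned reads are not given in the sources used here. The table deposited by the authors holds 1 FPKM value per gene and group, which was used. It also holds the authors' own fold changes, test statistics, p-values and q-values, which were not used. Depth was unknown, so no interval is given.

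Log2 differences used a pseudocount of 1, which understates changes of low genes, and calls used a mean FPKM of at least 1 and 2-fold (alternatively 1.5-fold). Starts in the table, counted from 0, had 1 added. Transcripts and genome were GENCODE vM1 and NCBIM37 (mm9), and promoters were those of RefSeq on GRCm38.p6, matched exactly to mm9. Motifs and windows of 50 and 100 bases were searched by exact match. Named genes were the actins, Tet2, list members past 2-fold (at most 4) and the most abundant member of each list, and the 3 genes most like each actin, besides those named otherwise. Members and lists were chosen with earlier results of these data known. Python 3.11.15, numpy 2.4.6, pandas 2.3.3, Biopython 1.88 and matplotlib 3.10.9 were used.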

Additional observations from a re-analysis of the deposited data

How the results depend on the processing

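No paired analysis was possible because the table holds 1 pooled value per group, and leaving out each library was not possible for the same reason. At 1.5-fold, Actc1 (-0.92) and Acta2 (-0.69) passed the threshold besides Acta1, and the genes called over the table rose from 142 to 338 lower and from 243 to 435 higher. A pseudocount of 0.1 gave 215 genes lower and 334 higher and moved Actg2 from 0.09 to 0.28, and a mean of at least 5 FPKM left 106 lower and 109 higher, fewer genes being tested. The log2 difference of striated over cytoplasmic actins, -1.34, was -1.64 for Acta1 over Actb, -1.19 for the 4 muscle actins and -0.88, short of 2-fold, for Actc1 over Actg1. Shares in Tet2 KO minus those in WT were also taken with 1 gene left out of the sum. Without Actb they were -15.5, -0.53 and 19.3 percentage points for Acta1, Acta2 and Actg1. With all 6 genes they were -9.13, -1.52 and 2.65. Without Acta1 they were 5.83 and 0.73 for Actb and Actg1, against 11.2 and 2.65 with all 6. The cardiac list, with 1 expressed gene, turned to 0.00080 with no filter on low values. The medians of the leukocyte (3 settings), fibroblast (3), smooth muscle (2) and mural (1) lists moved by more than 0.1, and the mural median changed sign, from -0.17 to 0.07, with a mean of at least 5 FPKM. The other differences of actin genes, 27 of 30 comparisons, kept their side of 2-fold and moved by less than 0.1 on the log2 scale. The settings were another pseudocount, TPM, centring on all genes or on housekeeping genes, and the lower threshold. Most of these comparisons could hardly move. The lower threshold leaves the values as they are. Each centring shifts every gene by the same constant, 0.0044 for all genes and -0.014 for housekeeping genes. The count is therefore no measure of robustness. The 935 genes with a mean of at least 100 FPKM were added as a background after the data were seen. The pooled values limit all results: the spread between libraries is unknown.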
